A study of Homo sapiens with 12 samples.

Results

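Antisense long non-coding RNAs (antisense lncRNAs) were followed in HEK293 cells, which derive from human embryonic kidney, through stimulation with epidermal growth factor (EGF), treatment with cordycepin and loss of the kinase AMPK. They were chosen by name and level: genes annotated as lncRNA whose symbol ends in -AS and a digit, with a mean of at least 1 RPKM (reads divided by exon length and library size) over the 12 libraries. Of 26058 genes listed in the deposited table, 6042 were lncRNAs, 1016 of those carried such a name, and 504 passed the level. The level rule uses the measured values, so that these RNAs are expressed is not a finding. The closest values inside the rule were 1.0003 RPKM for SLC41A3-AS1 and 1.0005 RPKM for PLCXD2-AS1, and the closest outside it were those of ERCC6L2-AS1 and FOXP1-AS1, which both round to 1.000 RPKM from below.

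An antisense lncRNA is transcribed from the strand opposite the gene it is named after, called its sense gene here. Some start beside the start of the sense gene and run away from it, so that one promoter region serves transcription in both directions, and others start inside or beyond the sense gene and cross its body. Such RNAs are usually rarer than messenger RNAs, many stay in the nucleus, and some are known to act on their sense gene or on microRNAs, while for most no function is known.

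The cells were wild type (WT) or carried a CRISPR knockout of both genes for the catalytic α subunit of AMPK, PRKAA1 and PRKAA2 (AMPK KO). AMPK is a kinase that senses cellular energy. All cells were serum starved for 24 h. In each line, 1 group then received the solvent DMSO only, 1 group received DMSO and then EGF, and 1 group received 25 µM cordycepin and then EGF. EGF was present for the last 30 min of a treatment of 50 min. For DMSO alone, the protocol gives 20 min and the sample labels 50 min. The EGF concentration is labelled as 15, in nM in one source and in µM in another, and this was not resolved. Cordycepin, or 3′-deoxyadenosine, resembles adenosine and ends an RNA chain when it is built in. Each of the 6 groups held 2 libraries, numbered 2 and 3, and the authors discarded replicate 1. The authors call the replicates biological. How they were cultured, and whether the AMPK KO line is a single clone, is not given in the sources used here, and p-values measure the spread between these samples. In such bulk samples fewer cells with an RNA and less RNA per cell cannot be told apart.

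The libraries differed in depth. On genes whose reads could be recovered from the RPKM values, 3825170 reads were found in WT DMSO replicate 3 and 12075582 to 25225240 in the other libraries. For the antisense lncRNAs this meant a median of 14 reads each in WT DMSO replicate 3, where 9 had no read, against medians of 48 to 116 reads elsewhere. The replicates of WT DMSO correlated with r = 0.918 across genes, and those of the other groups with r of 0.961 to 0.977. PRKAA1 was lower in AMPK KO than in WT in DMSO (log2 fold change -1.26, limma adjusted p = 0.0228), whereas PRKAA2 differed by -0.73 (adjusted p = 0.112). Of 9 markers of HEK293 cells, 6 had a mean of at least 1 RPKM, and of 7 markers of other cell types none did.

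The antisense lncRNAs were a low but broad class. Their median mean level was 2.07 RPKM, 446 of 504 lay under 5 RPKM, and 14 lay above 10 RPKM. The highest was FGD5-AS1, at a mean of 26.8 RPKM. It was followed by GAS5-AS1 at 21.2 RPKM, FBXL19-AS1 at 14.3 RPKM, ALG13-AS1 at 13.8 RPKM and OIP5-AS1 at 13.6 RPKM. OIP5-AS1 is known as a cytoplasmic lncRNA that binds a microRNA, and GAS5-AS1 lies opposite GAS5, a host gene of small nucleolar RNAs. Most antisense lncRNAs are annotated with several exons: the median number of merged exon blocks was 3, with 1 block in 40 of them. The median exon length was 1665 bases. Splicing in these cells was not measured.

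By position in the GENCODE annotation, 386 overlapped the body of the sense gene from the opposite strand, and 104 were head-to-head, with start sites within 1000 bases. For 10, among them the HOX cluster transcripts, no single sense gene could be matched. The other 4 (FOXD2-AS1, DNAJC9-AS1, MYCBP2-AS2 and FAM131B-AS2) lay beside the gene without overlap or on its strand. Among the overlapping RNAs, 206 had every exon base inside the body of the sense gene. For 490 of the 504 antisense lncRNAs the sense gene was protein coding.

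Promoters from RefSeq (GRCh38.p14, 250 bases before to 50 after a start site) could be matched for 377 of the 504. The head-to-head class is illustrated by CCDC28A-AS1 and ZNF566-AS1, which both recur below. CCDC28A-AS1 (chr6:138773654-138773953, minus strand) and ZNF566-AS1 (chr19:36489377-36489676, plus strand) are written 5′ to 3′ on the strand of the antisense RNA, with the 65 bases between the RefSeq start sites of the antisense and the sense gene in capitals.
CCDC28A-AS1: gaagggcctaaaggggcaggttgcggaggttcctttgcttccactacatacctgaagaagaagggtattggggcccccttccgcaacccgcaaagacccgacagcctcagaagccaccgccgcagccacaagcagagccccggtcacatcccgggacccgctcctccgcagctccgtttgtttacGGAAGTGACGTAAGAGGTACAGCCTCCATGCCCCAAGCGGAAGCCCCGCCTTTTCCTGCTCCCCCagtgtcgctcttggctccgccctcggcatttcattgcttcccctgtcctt
ZNF566-AS1: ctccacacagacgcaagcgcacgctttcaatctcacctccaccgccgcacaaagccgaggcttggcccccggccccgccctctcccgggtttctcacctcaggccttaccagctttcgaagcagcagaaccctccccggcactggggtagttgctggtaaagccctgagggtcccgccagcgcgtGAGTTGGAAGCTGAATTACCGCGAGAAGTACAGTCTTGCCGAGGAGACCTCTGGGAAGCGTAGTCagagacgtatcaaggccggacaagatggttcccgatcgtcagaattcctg
In the head-to-head class, 63.5% of promoter windows held a GC box (GGGCGG on either strand), the same letters were in 38.8% of windows of the overlapping class and 62.4% of windows of the sense genes, and their share among all 35116 windows was 45%. The median GC content was 65% in head-to-head windows, 58.7% in overlapping ones and 58.7% over all windows. A CCAAT box (CCAAT on either strand) occurred in 30.8% and 28.7% of head-to-head and overlapping windows, against 34.6% of all windows. The TATA box (TATAAA on either strand) was in 6.73% and 11.6% of them, against 11.5% of all. A match says only that the letters are present.

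The promoter of FGD5-AS1, the most abundant of the antisense lncRNAs, is shown for contrast, since it lies far from the start of FGD5 and had 74.7% GC. The window is the outermost of 3 in RefSeq (chr3:14948392-14948691, minus strand), with CCAAT boxes in capitals.
FGD5-AS1: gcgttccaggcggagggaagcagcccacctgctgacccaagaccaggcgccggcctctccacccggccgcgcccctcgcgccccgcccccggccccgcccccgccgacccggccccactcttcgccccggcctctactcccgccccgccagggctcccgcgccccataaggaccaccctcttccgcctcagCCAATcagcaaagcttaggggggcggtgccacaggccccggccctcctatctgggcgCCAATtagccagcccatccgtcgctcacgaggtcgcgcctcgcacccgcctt

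Each antisense lncRNA was set beside its sense gene. In 490 pairs with both genes listed, the sense genes had a median level of 7.89 RPKM and the median ratio of antisense to sense was 0.300. The antisense RNA was the more abundant in 91 pairs (18.6%). This was the case in 7 of 103 head-to-head pairs (6.80%), where the sense genes had a median of 12.3 RPKM, and in 82 of 383 overlapping pairs (21.4%), where it was 7.13 RPKM. Across these pairs the log2 levels had a Spearman coefficient of 0.121 and a Pearson coefficient of 0.141, and the members of a pair share locus and libraries. The level rule cut the antisense RNAs at 1 RPKM and left the sense genes uncut. That cut shapes these coefficients, the ratio and the shares, so they describe the chosen pairs only.

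**Figure D1:**
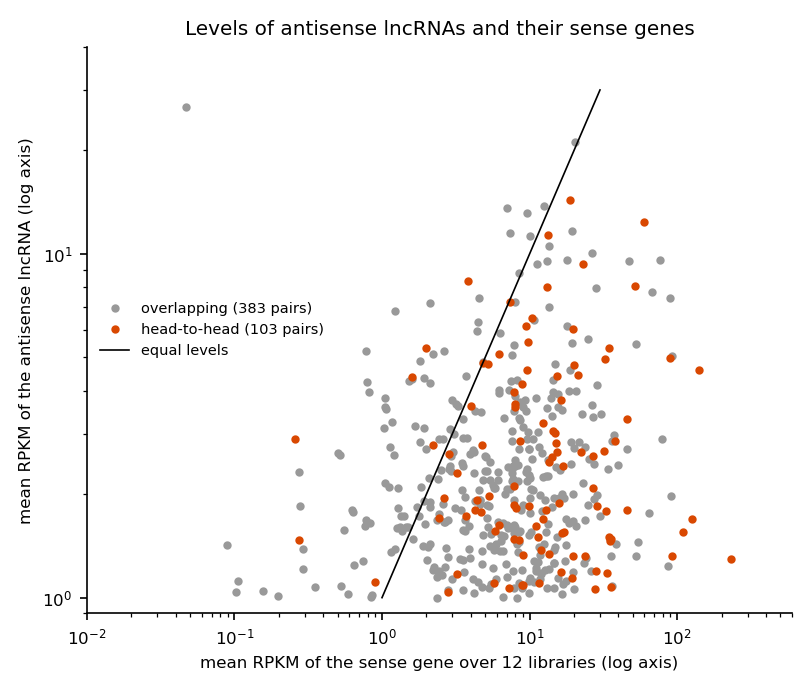
Mean RPKM over the 12 libraries of each antisense lncRNA (vertical axis, log scale) against that of its sense gene (horizontal axis, log scale), for 383 overlapping and 103 head-to-head pairs, with the line of equal levels. Most points lie under the line, 7 head-to-head and 82 overlapping pairs lie above it, and FGD5-AS1 lies far above it.

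In the plot of pair levels, the antisense RNA was the larger at some loci. FGD5, which encodes a guanine nucleotide exchange factor of endothelial cells, had a mean of 0.0466 RPKM beside 26.8 RPKM of FGD5-AS1. SGSM3 had 0.814 RPKM beside 3.96 RPKM of SGSM3-AS1. At the other end, TUBA1B, which encodes an α-tubulin, had 92.5 RPKM beside 5.05 RPKM of TUBA1B-AS1.

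Reads in exons that are shared by both strands limit what these levels mean. The libraries were stranded, but the strand setting of the counting is not given in the sources used here. The median antisense lncRNA had 6.38% of its exon bases on exons of the opposite strand, 177 had none, and 25 had more than 50%. Among annotated antisense lncRNAs, the share listed in the table was 49.3% (307 of 623) without such bases and 66.5% (464 of 698) with up to 20%. It was 16.7% (4 of 24) with 80% to 95% and 0 of 38 above 95% (exact 95% upper limit 9.25%). Which rule left genes out of the table was not stated. Reads in shared exons cannot be told apart here, and the results were therefore also counted over the 233 antisense lncRNAs with under 5% of such bases.

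Levels differed between the 6 groups by a modest ratio for most antisense lncRNAs. The ratio of the highest to the lowest group mean had a median of 1.83, with quartiles of 1.52 and 2.28. It was under 1.5 in 114 and above 4 in 15 of the 504. The most even were TICAM2-AS1 (1.10), SP2-AS1 (1.14), KDM4A-AS1 (1.15) and OIP5-AS1 (1.17), and the most uneven were ABR-AS1 (10.3), PRKCE-AS1 (9.88), PTPRS-AS1 (9.80) and TAT-AS1 (9.15). The group with the highest mean was AMPK KO with cordycepin and EGF for 172 antisense lncRNAs, and WT with cordycepin and EGF for 90. AMPK KO with EGF was the highest for 27. A group mean of at least 1 RPKM was reached in all 6 groups by 372, while 34 passed the rule only through 1 group, so counts over the whole class include RNAs that the rule picked because 1 group was high.

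Differences were tested with limma on log2(scaled RPKM + 0.5) over 22067 genes, and log2 fold changes below are on that scale, which understates changes of low genes. A gene was called when the unadjusted p was at most 0.05 and the log2 fold change at least 1 in size. This is the call rule of the study. Adjusted p-values are Benjamini-Hochberg values over all genes tested. In at least 1 of 7 comparisons, 72 of the 504 antisense lncRNAs were called (14.3%, against 11.6% of all genes), 56 of them in 1 comparison only. Those called in 3 or more were ABR-AS1, ETV5-AS1, ITCH-AS1, TSPEAR-AS2, TUBA1B-AS1 and ZNF566-AS1.

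Few antisense lncRNAs were called after EGF for 30 min. In WT, 3 were called higher (0.595% of 504, against 0.979% of all genes) and 2 lower (0.397%, against 0.557% of all genes). In AMPK KO, 2 were called higher (0.397%, against 0.285%) and 1 lower (0.198%, against 0.308%). Their median log2 fold change was -0.01 in WT and -0.05 in AMPK KO, where the medians of all genes were 0.02 and 0.01. By limma's adjusted p none passed in either line. At an unadjusted p under 0.05 there were 33 in WT (6.55%, against 9.72% of all genes) and 12 in AMPK KO (2.38%, against 2.42%). Voom on recovered reads, where a call means an adjusted p under 0.05, also called none (0.0424% and 0.0188% of all genes higher, 0% lower). It had 20 and 8 at an unadjusted p under 0.05, for which no share of all genes is given. Over the alternatives, the number passing the adjusted threshold ran from 0 to 13 in WT, with the 13 without WT DMSO replicate 2, and was 0 throughout in AMPK KO. Of all genes, 5 (0.0227%) and 3 (0.0136%) passed, and these were EGR1, EGR3 and FOS in both lines with EGR2 and FOSB in WT, immediate early genes that encode transcription factors. No antisense lncRNA was named after a gene of the immediate early list.

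The rises called in WT were small in reads. ABCC5-AS1, antisense to a gene for an export pump, measured 0.626 and 0 RPKM in DMSO and 1.77 and 1.04 RPKM with EGF, which rests on 5 and 0 reads against 21 and 8. GAS8-AS1 measured 1.06 and 0.25 RPKM in DMSO and 1.90 and 2.26 RPKM with EGF. MELTF-AS1 measured 0.773 and 0.218 RPKM in DMSO and 1.63 and 1.33 RPKM with EGF. That the DMSO values lay below the EGF values in all 3 was a condition for naming them. The lowest value of each came from WT DMSO replicate 3, with 0, 1 and 1 reads. Without that library the log2 fold changes fell from 1.29, 1.23 and 1.03 to 0.71, 0.69 and 0.61, and none of the 3 was called. Over the class, 5 were called in all, 7 without WT DMSO replicate 3, 47 without WT DMSO replicate 2 and 12 without WT DMSO+EGF replicate 2.

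In AMPK KO, ETV5-AS1 was called higher with EGF. It lies inside ETV5, which encodes an ETS transcription factor that growth factor signalling is known to induce, and none of its exon bases lie on opposite exons. ETV5-AS1 measured 0.580 and 0.433 RPKM in DMSO and 1.42 and 2.46 RPKM with EGF (log2 fold change 1.25 ± 0.46 SE, limma adjusted p rounding to 1), whereas in WT it measured 1.57 and 3.11 RPKM in DMSO and 3.17 and 0.868 RPKM with EGF. The groups overlapped in WT, while in AMPK KO a lack of overlap was a condition for naming ETV5-AS1. ETV5 itself changed by 0.15 in AMPK KO and 0.24 in WT. ITCH-AS1, antisense to the gene of a ubiquitin ligase, was called lower, from 2.17 and 2.23 RPKM to 0.242 and 0.727 RPKM, the latter from 1 and 3 reads. Leaving out AMPK KO libraries in turn gave 5 to 10 calls in place of 3: 9 without DMSO replicate 2, 5 without DMSO replicate 3, 5 without DMSO+EGF replicate 2 and 10 without DMSO+EGF replicate 3. For the difference of the EGF effect between the lines, no antisense lncRNA had an adjusted p under 0.05 in limma (0% of all genes). By unadjusted p and fold, 12 met the call rule (2.38%, against 2.53% of all genes). At an unadjusted p under 0.05 there were 32 (6.35%, against 8.69% of all genes). Voom called none (0% of all genes called), with 28 at that unadjusted p, for which no share of all genes is given.

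With cordycepin, the antisense lncRNAs lay on balance above their levels with EGF alone, in both lines. In WT treated with EGF, 11 were called higher with cordycepin (2.18%, against 1.62% of all genes) and 2 lower (0.397%, against 0.988%). In AMPK KO, 22 were called higher (4.37%, against 2.97%) and 2 lower (0.397%, against 0.394%). The median log2 fold change was 0.15 in WT and 0.22 in AMPK KO, whereas it was 0.03 and 0.06 over all genes and -0.01 and -0.06 over the sense genes. The 4069 other lncRNAs tested had medians of 0.14 and 0.28, and 3.42% and 5.55% of them were called higher, so nothing in these values sets the antisense class apart from them. Fold changes were above 0 for 321 antisense lncRNAs in WT (63.7%, against 53.5% of all genes) and for 364 in AMPK KO (72.2%, against 55.1%).

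**Figure D2:**
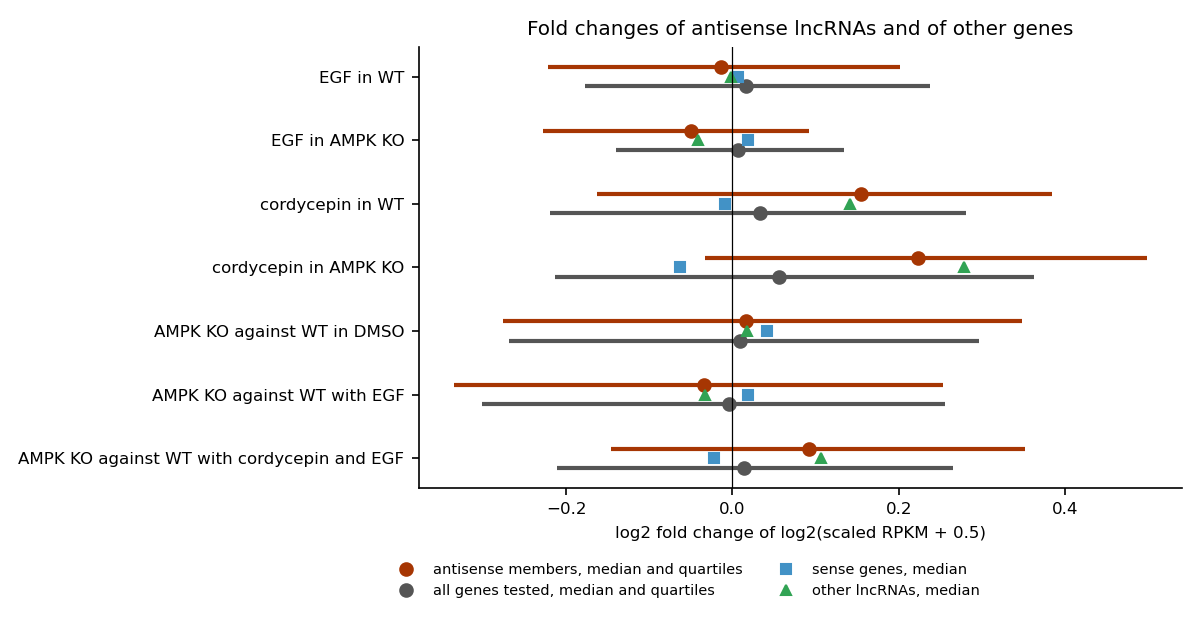
Median log2 fold change in 7 comparisons, with quartiles as bars for the 504 antisense lncRNAs and for all 22067 genes tested, and medians alone for the sense genes and the other lncRNAs. With cordycepin the antisense lncRNAs and the other lncRNAs lie above 0 (0.15 and 0.14 in WT, 0.22 and 0.28 in AMPK KO), while the sense genes lie at -0.01 and -0.06.

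The plot of median fold changes shows that the quartiles of the class were wide in each comparison. Without single libraries, the median cordycepin effect on the class ran from 0.07 to 0.19 in WT and from 0.10 to 0.37 in AMPK KO. The lowest value in AMPK KO came without cordycepin+EGF replicate 2 and the highest without cordycepin+EGF replicate 3. In the count of calls, the 13 of WT became 26 when WT cordycepin+EGF replicate 2 was left out and 21 when WT DMSO+EGF replicate 3 was left out. The 24 of AMPK KO became 36 without cordycepin+EGF replicate 3 and 17 without cordycepin+EGF replicate 2. The comparisons of cordycepin and of EGF within a line share the EGF libraries.

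By position, the head-to-head class had a median log2 fold change of 0.29 in WT (78 of 104 above 0) and 0.11 in AMPK KO (62 of 104). The overlapping class had 0.13 in WT (236 of 386 above 0) and 0.24 in AMPK KO (290 of 386). By sense gene, the 26 antisense lncRNAs of zinc finger genes had medians of 0.32 and 0.27. The 23 grouped by symbol prefix alone under developmental transcription factors had 0.02 in WT and 0.44 in AMPK KO, where 20 of 23 lay above 0. At an unadjusted p under 0.05, 8 of these 23 were higher and 0 lower in AMPK KO, where 88 of all 504 were higher. In WT 0 were higher and 1 lower, where 65 of all 504 were higher. In either direction, 21.8% of all genes had such a p in AMPK KO and 16.0% in WT. The share of all genes that were higher at that p is not given, so these counts are not read as a trait of the 23. The 23 include transcripts of the HOX clusters, several from the same cluster. Of the 10 RNAs without a matched sense gene, among them these HOX transcripts, 10 lay above 0 in AMPK KO and 4 in WT. At that p, 5 of the 10 were higher in AMPK KO and 0 in WT.

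In AMPK KO, 5 antisense lncRNAs passed the adjusted threshold with cordycepin, all of them higher (0.471% of all genes passed, and 96 of the 504 had an unadjusted p under 0.05, which is 19.0%, against 21.8% of all genes). MIF-AS1 (ENSG00000218537, chromosome 22, 23894426 to 23898930, minus strand) overlaps the gene of a cytokine, macrophage migration inhibitory factor. It measured 1.91 and 1.62 RPKM with EGF and 6.48 and 6.76 RPKM with cordycepin and EGF (log2 fold change 1.70 ± 0.18 SE, limma adjusted p = 0.0138). In WT the values were 2.38 and 3.05 RPKM against 5.05 and 4.56 RPKM, so both lines were higher with cordycepin without overlap. MIF itself was not analysed here, and 46.5% of the exon bases of MIF-AS1 lie on its exons.

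SGSM3-AS1 (ENSG00000229999, chromosome 22, 40372664 to 40388290, minus strand) lies wholly inside SGSM3, a gene for a regulator of small G proteins, with no exon base on opposite exons. SGSM3-AS1 rose from 1.94 and 1.87 RPKM to 7.49 and 6.09 RPKM in AMPK KO (log2 fold change 1.64 ± 0.21 SE, limma adjusted p = 0.0265). In WT it measured 3.84 and 2.59 RPKM with EGF and 4.43 and 6.004 RPKM with cordycepin. The WT groups did not overlap either, and SGSM3 differed by 0.38 in AMPK KO and was not called.

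NFYC-AS1 (ENSG00000272145, chromosome 1, 40690380 to 40692074, minus strand) is head-to-head with NFYC, which encodes a subunit of the CCAAT-binding factor NF-Y, with 426 bases between the start sites. NFYC-AS1 rose from 4.48 and 4.27 RPKM to 10.5 and 9.54 RPKM in AMPK KO (log2 fold change 1.15 ± 0.14 SE, limma adjusted p = 0.026). In WT it measured 4.86 and 4.55 RPKM with EGF and 8.14 and 8.35 RPKM with cordycepin, again without overlap. NFYC measured 11.0 and 11.3 RPKM with EGF in AMPK KO and 8.90 and 10.0 RPKM with cordycepin (log2 fold change -0.18, not called).

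ZRANB2-AS1 (ENSG00000235079, chromosome 1, 71048855 to 71067184, plus strand) is antisense to the gene of a zinc finger protein of splicing. Of its exon bases, 43.3% lie on exons of ZRANB2, which had a mean of 37.6 RPKM. ZRANB2-AS1 rose from 1.57 and 2.17 RPKM to 5.65 and 5.79 RPKM in AMPK KO (log2 fold change 1.45 ± 0.23 SE, limma adjusted p = 0.0467), and ZRANB2 differed by -0.22. In WT, ZRANB2-AS1 measured 2.16 and 2.64 RPKM with EGF and 4.05 and 3.35 RPKM with cordycepin. BNC2-AS1 (ENSG00000234779, chromosome 9, 16726814 to 16727524, plus strand) lies inside BNC2, which encodes a zinc finger protein. BNC2-AS1 rose from 0.507 and 0.338 RPKM to 2.23 and 2.22 RPKM in AMPK KO (log2 fold change 1.61 ± 0.27 SE, limma adjusted p = 0.049), which rests on 3 and 2 reads against 14 and 18. In WT it measured 1.57 and 1.14 RPKM with EGF and 1.54 and 1.17 RPKM with cordycepin, which overlap.

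**Figure D3:**
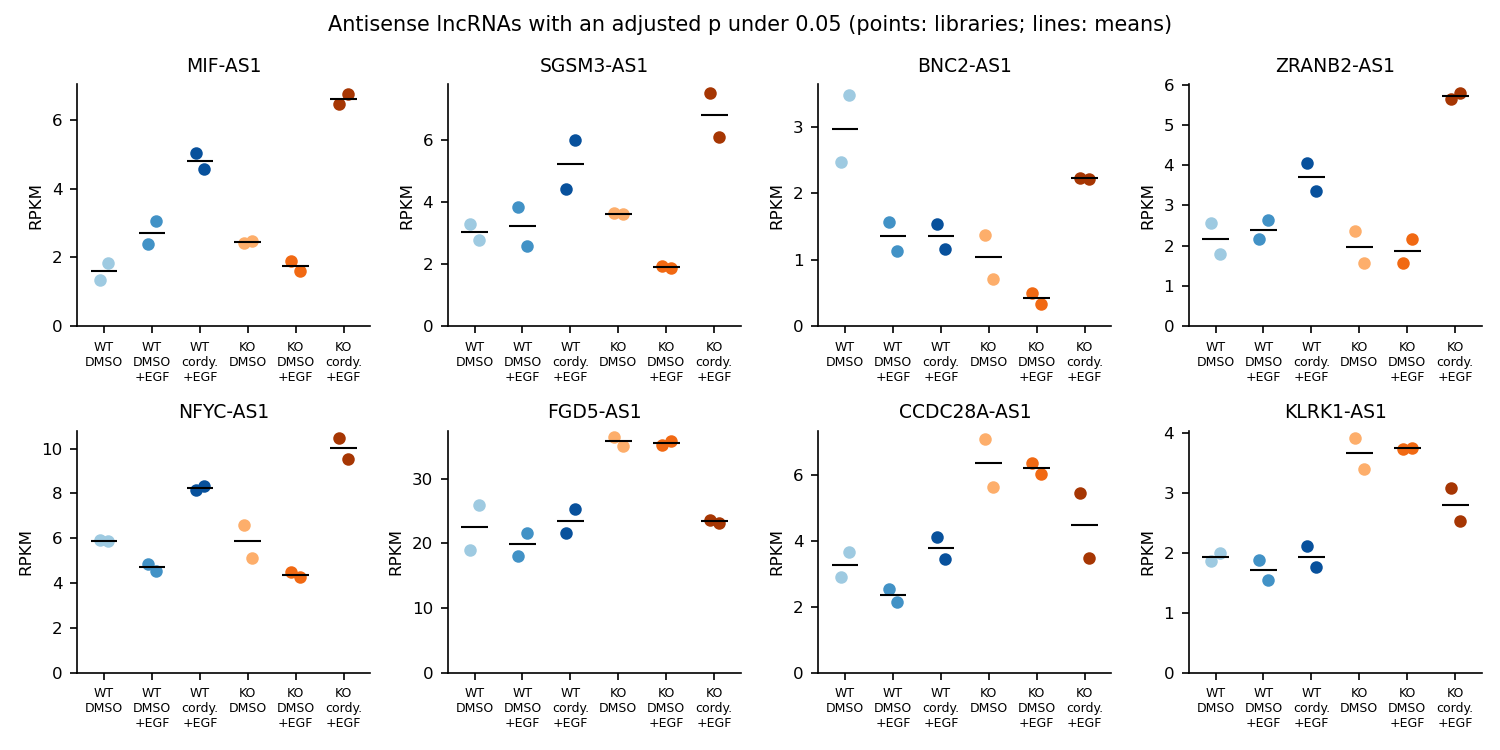
RPKM of the 8 antisense lncRNAs with an adjusted p under 0.05 in any comparison, 1 panel each, with every library as a point in the 6 groups (KO stands for AMPK KO, cordy. for cordycepin) on a linear axis from 0. MIF-AS1, SGSM3-AS1, BNC2-AS1, ZRANB2-AS1 and NFYC-AS1 are higher in AMPK KO with cordycepin than in AMPK KO with EGF alone, while FGD5-AS1, CCDC28A-AS1 and KLRK1-AS1 are higher in AMPK KO than in WT with EGF.

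For these 5 the panels of single libraries show tight replicates in AMPK KO, which their choice by adjusted p in these same libraries favours. Their adjusted p-values depended on the fit. Over the alternatives they ran from 0.00442 to 0.158 for MIF-AS1 (under the threshold in 11 of 17), from 0.0171 to 0.236 for SGSM3-AS1 (10 of 18) and from 0.013 to 0.236 for NFYC-AS1 (10 of 17). They ran from 0.0189 to 0.297 for ZRANB2-AS1 (5 of 17) and from 0.0421 to 0.297 for BNC2-AS1 (3 of 17). With replicate number as a block inside each line, MIF-AS1 and NFYC-AS1 passed and the other 3 did not. In WT the same 5 had log2 fold changes of 0.77, 0.67, 0.79, 0.57 and 0.04 for MIF-AS1, SGSM3-AS1, NFYC-AS1, ZRANB2-AS1 and BNC2-AS1, with limma adjusted p of 0.252, 0.267, 0.225, 0.293 and 0.96. The difference of the cordycepin effect between the lines did not pass for any of them (adjusted p of 0.124, 0.141, 0.323, 0.183 and 0.122), so their response is not shown to differ between WT and AMPK KO.

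In WT no antisense lncRNA passed the adjusted threshold with cordycepin in limma, with 72 at an unadjusted p under 0.05 (14.3%, against 16.0% of all genes), 65 of them higher. Only 1 gene of all (0.00453%) passed. Voom on recovered reads called 11 higher and 2 lower in WT, against 1.43% of all genes higher and 2.47% lower. In AMPK KO voom called 20 higher and 4 lower, against 2.62% of all genes higher and 3.33% lower. Voom covered 503 of the 504. Over the alternatives, the number passing the adjusted threshold ran from 0 to 13 in WT and from 0 to 24 in AMPK KO. The largest rise called in WT was that of KLC2-AS2, antisense to the gene of a kinesin light chain, with 1.01 and 0 RPKM with EGF and 3.57 and 4.58 RPKM with cordycepin (log2 fold change 2.41 ± 0.57 SE, limma adjusted p = 0.256). It rests on 7 and 0 reads with EGF, and 72.4% of its exon bases lie on opposite exons. Without WT DMSO+EGF replicate 3, the log2 fold change of KLC2-AS2 was 1.61.

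Of the 11 antisense lncRNAs called higher with cordycepin in WT, 3 that had lower values with it in AMPK KO are described here. They were picked for that pattern, so tests of the difference between lines are read on chosen RNAs. Not all of the 11 shared it: KLC2-AS2 had a log2 fold change of 0.31 in AMPK KO in voom. ZNF566-AS1 (ENSG00000267309, chromosome 19, 36489649 to 36491040, plus strand) is head-to-head with ZNF566, a zinc finger gene, and its promoter is shown above. ZNF566-AS1 measured 5.92 and 8.65 RPKM with EGF and 11.7 and 19.9 RPKM with cordycepin in WT (log2 fold change 1.08 ± 0.33 SE). In AMPK KO it measured 14.4 and 13.7 RPKM with EGF and 8.63 and 5.73 RPKM with cordycepin (-0.91 ± 0.33 SE, not called). The groups did not overlap within either line, and the direction was opposite. ZNF566 differed by 0.29 in WT and -0.51 in AMPK KO and was called in neither.

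TUBA1B-AS1 (ENSG00000258017) measured 1.33 and 2.24 RPKM with EGF and 6.13 and 7.27 RPKM with cordycepin in WT. In AMPK KO it measured 6.10 and 6.08 RPKM with EGF and 4.11 and 1.35 RPKM with cordycepin. TSPEAR-AS2 (ENSG00000182912) measured 0.339 and 0.422 RPKM with EGF and 2.42 and 2.37 RPKM with cordycepin in WT, and 1.53 and 1.36 RPKM against 0.700 and 0.157 RPKM in AMPK KO. For both RNAs the groups did not overlap within a line, and TSPEAR-AS2 was called in both lines, higher in WT (log2 fold change 1.74) and lower in AMPK KO (-1.11). TUBA1B-AS1 was called in WT (1.72), and its value in AMPK KO was -1.13 (unadjusted p = 0.0597). TUBA1B differed by -0.54 in WT and 0.02 in AMPK KO, and 34.0% of the exon bases of TUBA1B-AS1 lie on its exons.

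**Figure D4:**
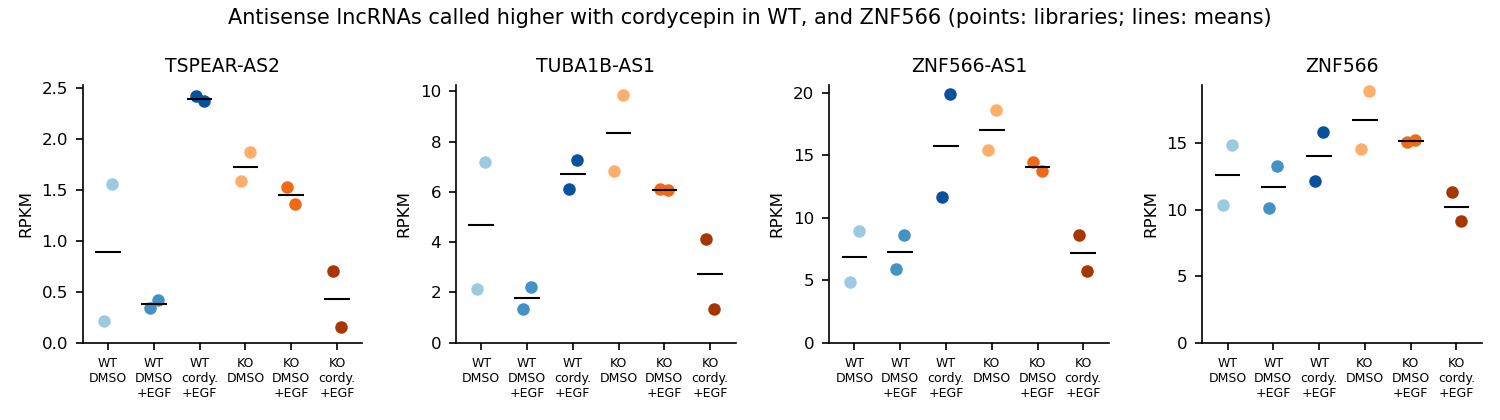
RPKM in each library of TSPEAR-AS2, TUBA1B-AS1, ZNF566-AS1 and the sense gene ZNF566, by group, on linear axes from 0. In the 3 antisense lncRNAs the points with cordycepin lie above those with EGF alone in WT and below them in AMPK KO, and ZNF566 differed by 0.29 and -0.51 on the log2 scale.

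The libraries in the plot of opposite responses also differ within WT DMSO: TUBA1B-AS1 measured 2.14 and 7.20 RPKM there and TSPEAR-AS2 0.214 and 1.56 RPKM, with the higher value of each in the shallow replicate 3. The difference of the cordycepin effect between the lines was -1.99 for ZNF566-AS1, -2.85 for TUBA1B-AS1 and -2.85 for TSPEAR-AS2. With limma's adjusted p these did not pass (0.122, 0.123 and 0.122). With voom on recovered reads they passed, with adjusted p of 0.0123 for ZNF566-AS1, 0.011 for TUBA1B-AS1 and 0.0102 for TSPEAR-AS2. Over the class, none of the 504 had a limma adjusted p under 0.05 for this difference (0% of all genes), and 80 had an unadjusted p under 0.05 (15.9%, against 21.4% of all genes). By unadjusted p and fold, 35 met the call rule (6.94%, against 8.01% of all genes). By adjusted p, voom called 33 (9.29% of all genes), and a limma fit of only the groups compared called 14, for which no share of all genes is given.

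The largest rise called in AMPK KO was that of PRKCE-AS1, inside the gene of a protein kinase C, from 0.773 and 0 RPKM to 3.65 and 1.27 RPKM (log2 fold change 1.80 ± 0.72 SE, limma adjusted p = 0.193), which rests on 4 and 0 reads against 20 and 9. PRKCE differed by 0.31 and was not called. Falls called with cordycepin were few. TCF4-AS1 measured 2.69 and 2.00 RPKM with EGF and 1.58 and 0.157 RPKM with cordycepin in WT (log2 fold change -1.24), where the lowest value came from 1 read. TRIM52-AS1 measured 4.89 and 4.16 RPKM with EGF and 1.63 and 1.86 RPKM with cordycepin in WT (-1.12). In AMPK KO, TAT-AS1 measured 1.503 and 1.55 RPKM with EGF and 0.258 and 0.233 RPKM with cordycepin (-1.42). These 3 were named by a rule that required groups without overlap, so the lack of overlap is not a result. None passed the adjusted threshold in limma, while in voom TRIM52-AS1 (adjusted p = 0.0396) and TAT-AS1 (adjusted p = 0.0452) passed and TCF4-AS1 did not.

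Between AMPK KO and WT, antisense lncRNAs were called in both directions. In DMSO, 10 were called higher in AMPK KO than in WT (1.98%, against 1.98% of all genes) and 11 lower (2.18%, against 1.93%). With EGF, 8 were called higher (1.59%, against 1.04%) and 11 lower (2.18%, against 2.37%). With cordycepin and EGF, 7 were called higher (1.39%, against 0.897%) and 4 lower (0.794%, against 0.648%). These shares lie near those of all genes. The median log2 fold changes were 0.02, -0.03 and 0.09, beside 0.01, 0.00 and 0.01 over all genes and 0.02, -0.03 and 0.11 over the other lncRNAs.

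The counts depended on single libraries. In DMSO, the 21 calls became 55 without WT DMSO replicate 3, 40 without WT DMSO replicate 2 and 34 without AMPK KO DMSO replicate 2. With cordycepin and EGF, the 11 calls became 32 when WT cordycepin+EGF replicate 2 was left out, 4 when its replicate 3 was left out, and 18 when replicate 3 of AMPK KO with cordycepin+EGF was left out. With replicate number as a block inside each line, 40 were called in DMSO and 31 with EGF, beside 21 and 19. That block fit compares the lines at the level of replicate 2 and not at their group means. Its counts can therefore not be set against the others.

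With EGF, 3 antisense lncRNAs passed the adjusted threshold between the lines in limma, all higher in AMPK KO (1.74% of all genes passed). At an unadjusted p under 0.05 there were 98 of the 504 (19.4%, against 22.5% of all genes), 50 higher and 48 lower. Voom called 18 higher and 16 lower, against 4.89% of all genes higher and 6.05% lower, and the number passing ran from 0 to 34 over the alternatives. FGD5-AS1 (ENSG00000225733, chromosome 3, 14920347 to 14948424, minus strand), whose promoter is shown above, measured 18.1 and 21.6 RPKM in WT and 35.3 and 35.8 RPKM in AMPK KO (log2 fold change 0.85 ± 0.15 SE, limma adjusted p = 0.0402). In DMSO it measured 19.0 and 26.0 RPKM in WT and 36.5 and 35.1 RPKM in AMPK KO (0.65, adjusted p = 0.0799). With cordycepin and EGF it measured 21.6 and 25.4 RPKM in WT and 23.6 and 23.2 RPKM in AMPK KO (0.02 ± 0.15 SE), and the groups overlapped. In FGD5-AS1 the AMPK KO libraries without cordycepin thus lay above all others, with at least 633 reads in each library.

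CCDC28A-AS1 (ENSG00000279968, chromosome 6, 138725211 to 138773652, minus strand) measured 2.54 and 2.15 RPKM in WT and 6.35 and 6.02 RPKM in AMPK KO with EGF (log2 fold change 1.25 ± 0.23 SE, limma adjusted p = 0.0413). It is head-to-head with CCDC28A, a gene for a coiled-coil protein, without shared exon bases, across the promoter printed above. CCDC28A measured 11.4 and 12.5 RPKM in WT and 21.9 and 17.9 RPKM in AMPK KO (0.73 ± 0.15 SE, adjusted p = 0.0503). Both RNAs of the pair were thus higher in AMPK KO, without overlap, and with cordycepin and EGF their differences were 0.21 and 0.04.

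KLRK1-AS1 (ENSG00000245648, chromosome 12, 10363638 to 10398506, plus strand) overlaps KLRK1, the gene of a receptor of natural killer cells, which had a mean of 0.507 RPKM here. KLRK1-AS1 measured 1.88 and 1.55 RPKM in WT and 3.75 and 3.76 RPKM in AMPK KO with EGF (log2 fold change 0.96 ± 0.17 SE, limma adjusted p = 0.0416). It was also higher in AMPK KO, without overlap, in DMSO (0.75) and with cordycepin (0.45), where the adjusted p was 0.0786 and 0.315. Over the alternatives the adjusted p with EGF ran from 0.00411 to 0.263 for FGD5-AS1 (under the threshold in 11 of 15), from 0.0039 to 0.255 for CCDC28A-AS1 (11 of 16) and from 0.00324 to 0.263 for KLRK1-AS1 (10 of 15). With replicate number as a block inside each line, FGD5-AS1 passed (0.0444) and CCDC28A-AS1 (0.0543) and KLRK1-AS1 (0.0627) did not. That block fit compares the lines at the level of replicate 2 and not at their group means.

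The other large rises called in AMPK KO with EGF were those of TUBA1B-AS1 (1.57), RBM25-AS1 (1.35) and GLIPR1-AS1 (1.24). RBM25-AS1, antisense to a splicing factor gene, measured 2.60 and 2.31 RPKM in WT and 5.86 and 8.26 RPKM in AMPK KO, and GLIPR1-AS1 measured 3.25 and 3.69 RPKM in WT and 7.37 and 10.5 RPKM in AMPK KO. The largest falls called were those of BMAL2-AS1 (-1.28), TRIM52-AS1 (-1.18), MED4-AS1 (-1.17) and GSTCD-AS1 (-1.15). BMAL2-AS1, antisense to a clock gene, measured 2.21 and 1.44 RPKM in WT and 0.630 and 0.270 RPKM in AMPK KO. Groups without overlap were a condition for naming these 3 RNAs. None of them passed the adjusted threshold in limma, while in voom RBM25-AS1 (adjusted p = 0.0162) and GLIPR1-AS1 (adjusted p = 0.00985) passed and BMAL2-AS1 did not.

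In DMSO no antisense lncRNA passed the adjusted threshold between the lines in limma (0.44% of all genes did), and 98 had an unadjusted p under 0.05 (19.4%, against 21.3% of all genes). Voom called 22 higher and 7 lower, against 4.95% of all genes higher and 2.89% lower. Over the alternatives the number passing ran from 0 to 53, with the 53 without WT DMSO replicate 3 and 4 without WT DMSO replicate 2. Of the largest rises called, HCFC1-AS1 lies opposite the gene of a transcriptional cofactor of the cell cycle. It measured 2.85 and 3.55 RPKM in WT and 8.54 and 10.1 RPKM in AMPK KO in DMSO (log2 fold change 1.39 ± 0.25 SE, limma adjusted p = 0.0511), and it lies inside HCFC1 without shared exon bases. HCFC1 measured 41.0 and 71.8 RPKM in WT and 83.9 and 82.4 RPKM in AMPK KO (0.59). The groups of HCFC1 did not overlap, and for HCFC1-AS1 this was a condition for naming it. With EGF the values of HCFC1-AS1 were 8.90 and 5.21 RPKM in WT and 7.02 and 6.41 RPKM in AMPK KO, which overlap.

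The largest rises called in DMSO beside it were those of EPS15-AS1 (1.51) and SIGLEC10-AS2 (1.49), both with 0 reads in WT DMSO replicate 3. Without that library their log2 fold changes were 0.56 and 0.66, and neither was called. The largest fall was that of COL18A1-AS2, antisense to a collagen gene, with 2.34 and 2.25 RPKM in WT and 0.589 and 0.220 RPKM in AMPK KO (-1.67 ± 0.39 SE, limma adjusted p = 0.0835). It was followed by ETV5-AS1 (-1.46), RERE-AS1 (-1.35) and TRPS1-AS1 (-1.33). ABR-AS1, the RNA with the widest range of group means, measured 2.25 and 1.06 RPKM in WT and 0.553 and 0.258 RPKM in AMPK KO in DMSO (-1.22), the latter from 2 and 1 reads. With cordycepin in AMPK KO it measured 3.20 and 5.17 RPKM, so its lowest and highest groups were both in AMPK KO.

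With cordycepin and EGF, no antisense lncRNA passed the adjusted threshold between the lines in limma (0.118% of all genes did), and 55 had an unadjusted p under 0.05 (10.9%, against 13.7% of all genes). Voom called 3 higher and 1 lower, against 0.824% of all genes higher and 0.579% lower. The falls called in AMPK KO were TSPEAR-AS2 (-1.70), TUBA1B-AS1 (-1.28), ITCH-AS1 (-1.09) and ZNF566-AS1 (-1.04). The largest rises called were TCF4-AS1 (1.47), VCAN-AS1 (1.41), PTPRS-AS1 (1.38) and ETV5-AS1 (1.29). VCAN-AS1 was called together with its sense gene. It measured 0.989 and 0.284 RPKM in WT and 3.19 and 1.69 RPKM in AMPK KO, and VCAN, which encodes the matrix proteoglycan versican, measured 10.6 and 5.75 RPKM in WT and 17.4 and 21.9 RPKM in AMPK KO. The groups of VCAN did not overlap, which for VCAN-AS1 was a condition for naming it. Of the exon bases of VCAN-AS1, 51.7% lie on opposite exons.

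Joint calls of antisense and sense RNA had little room to occur. Over the 476 pairs with both genes tested, 3 to 21 antisense RNAs and 0 to 7 sense genes were called per comparison. Both were called in 0 pairs in each of the 7 comparisons but 1. In that of the lines with cordycepin and EGF, VCAN-AS1 and VCAN were the 1 pair. With so few sense genes called, these counts do not say whether pairs change together. For the difference of the cordycepin effect between the lines, 31 antisense RNAs and 23 sense genes met the rule of unadjusted p and fold. Both met it in 2 pairs, in the same direction. Across the pairs the fold changes were weakly to moderately related. The Spearman coefficient was 0.341 for cordycepin in WT and 0.206 in AMPK KO, and it was 0.418 between the lines in DMSO, 0.300 with EGF and 0.392 with cordycepin and EGF. It was lowest for the EGF effect, at 0.12 in WT and 0.15 in AMPK KO. In the 171 pairs without exon bases on opposite exons it was 0.370, 0.201 and 0.350 for cordycepin in WT, cordycepin in AMPK KO and the lines in DMSO. For the EGF effect in these pairs it was 0.15 in WT and 0.07 in AMPK KO. Signs were shared in 297 of 476 pairs (62.4%) with cordycepin in WT and in 239 (50.2%) in AMPK KO. The members of a pair share locus, libraries and depth, so these coefficients are descriptions.

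**Figure D5:**
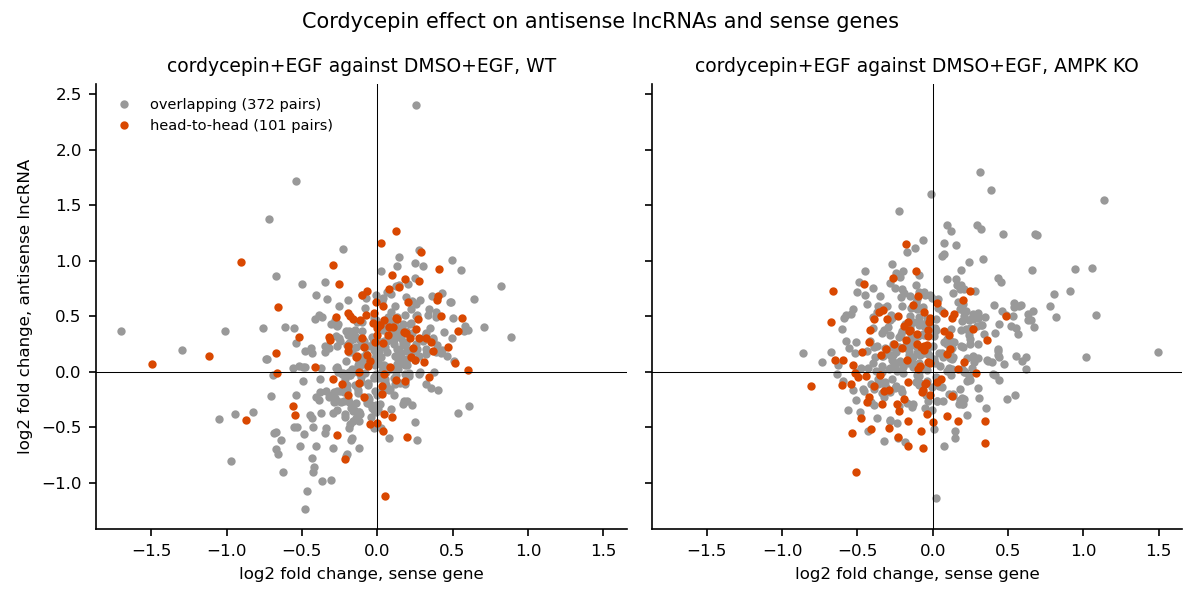
Log2 fold change with cordycepin of each antisense lncRNA (vertical axis) against that of its sense gene (horizontal axis) in WT and in AMPK KO, for 372 overlapping and 101 head-to-head pairs. Lines mark 0 on both axes. The clouds are wide in both panels (Spearman coefficients of 0.341 and 0.206 over all 476 pairs). The antisense fold change was above the sense fold change in 297 of the 476 pairs in WT and in 341 in AMPK KO.

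In the plot of paired fold changes the antisense RNAs tend to lie above their sense genes with cordycepin. The fold change of the antisense RNA was above that of its sense gene in 297 of 476 pairs in WT and in 341 of 476 in AMPK KO. With EGF it was above in 223 pairs in WT and 192 in AMPK KO. With cordycepin the medians of other lncRNAs (0.14 in WT and 0.28 in AMPK KO) also lay above those of protein-coding genes (-0.01 and -0.03). These pair counts are therefore not read as a trait of antisense pairs. The level rule cut the antisense RNAs alone, on a mean that includes the cordycepin groups.

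Of a list of 39 antisense lncRNAs known from the literature, 28 were listed in the table and 14 passed 1 RPKM. None of the 14 was called in any of the 7 comparisons by limma, where 11.6% of all genes were called in at least 1. In voom, which did not cover OIP5-AS1, 5 of the other 13 passed the adjusted threshold in at least 1 comparison: TMPO-AS1 between the lines in DMSO (log2 fold change -1.15, adjusted p = 0.0297), MCM3AP-AS1 (-0.62, 0.0193), ZEB1-AS1 (-0.89, 0.0354), SOX21-AS1 (-0.89, 0.0329) and HIF1A-AS3 (-0.92, 0.0304) between the lines with EGF, and ZEB1-AS1 with cordycepin in AMPK KO (0.96, 0.0432). Of all genes, voom called 2.89% lower between the lines in DMSO and 6.05% lower with EGF. It called 2.62% of all genes higher with cordycepin in AMPK KO. The 5 of 13 is taken over 7 comparisons and is not read as a trait of the list. OIP5-AS1 held between 12.05 and 15.8 RPKM in all libraries and PSMA3-AS1, antisense to a proteasome gene, between 6.79 and 8.62 RPKM. CDKN2B-AS1, known as ANRIL from the locus of the cell cycle inhibitor p15, had group means of 2.66, 2.33 and 1.87 RPKM in WT with DMSO, EGF and cordycepin and of 1.60, 1.61 and 2.38 RPKM in AMPK KO. Its values overlapped between cordycepin and EGF in WT and not in AMPK KO, where the log2 fold change was 0.47 (limma adjusted p = 0.327). ZEB1-AS1, beside the gene of a transcription factor of epithelial to mesenchymal transition, had group means of 1.29 RPKM with EGF and 2.54 RPKM with cordycepin in AMPK KO (0.80, adjusted p = 0.11). TMPO-AS1, head-to-head with a lamina protein gene, had 3.96 RPKM in WT and 1.87 RPKM in AMPK KO in DMSO (-0.96, adjusted p = 0.0956).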

How the data were processed

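The authors sequenced stranded, ribosomal RNA-depleted libraries of total RNA, and used Rsubread to count reads per gene after mapping to GRCh38.p13. The deposited values are RPKM, whose library sizes already carry a scaling factor. Symbols, types and positions came from GENCODE 44 (26029 of 26058 genes matched). A total of 2 rows that name no gene were left out. Reads were recovered from the RPKM steps, with a tolerance of 0.05 reads. In every library they came out whole for 96.4% of genes and for all antisense lncRNAs but OIP5-AS1.

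RPKM values were divided by the upper quartile of each library, and log2(value + 0.5) was fitted with limma 3.58.1 in R 4.3.3 (eBayes with trend, two-sided, all 12 libraries, group means only, 6 residual degrees of freedom) over genes with a mean of at least 0.5 RPKM. SE is the moderated standard error. The steps were tested on simulated data. Tables were handled with pandas 2.3.3, numpy 2.4.6 and scipy 1.17.1.

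The antisense lncRNAs and all lists were chosen with earlier results of these data known. Named were the 10 highest levels, for each comparison at most 4 rises and 4 falls, the largest of those called without overlap of replicates, those with an adjusted p under 0.05, the literature list, the sense genes and the values beside the level rule. TICAM2-AS1, SP2-AS1, KDM4A-AS1, and the 4 RNAs beside their gene were named after their values were seen.

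The gene-wise difference of replicate 3 from replicate 2 had correlations of 0.136, 0.282 and 0.314 between WT groups. Between AMPK KO groups they ran from -0.122 to 0.031. Between a WT and an AMPK KO group they ran from -0.081 to 0.322. Replicate numbers are therefore not shown to pair the WT samples in particular. Alternatives were other pseudocounts, filters and scalings, fits of only the groups compared, replicate blocks, voom on recovered reads, leaving out each library, and narrower choices of antisense lncRNAs. Several of these were added after seeing the data.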

Additional observations from a re-analysis of the deposited data

How the results depend on the processing

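No call of a named RNA turned its direction under any alternative: 795 of these repeated values stayed on their side of the call rule, 138 lost the call and 4 gained it. The number of antisense lncRNAs called moved with the pseudocount: at 0.1 it was 13 and 5 with EGF in WT and AMPK KO, 25 with cordycepin in WT and 48 between the lines in DMSO, and at 1 it was 0, 1, 6 and 13, with 11 for cordycepin in AMPK KO and 6 between the lines with EGF. By the same rule, voom on recovered reads gave 30 with cordycepin in WT, 62, 31 and 20 between the lines in DMSO, with EGF and with cordycepin and EGF, while by adjusted p alone it gave 33 for the difference of the cordycepin effect, for which only the groups compared gave 14 and the limma fit of all groups 0. Over the 257 antisense lncRNAs with a mean of at least 2 RPKM the calls were 1 and 1 with EGF, 7 and 13 with cordycepin, and 11, 9 and 4 between the lines. Over the 233 with under 5% of exon bases on opposite exons they were 1 with EGF in WT, 6 and 14 with cordycepin, and 13, 10 and 7 between the lines, with a median fold change of -0.0451 in DMSO. Both subsets hold fewer genes by construction. By the call rule, no share of all genes is given for these alternatives, so the counts are not set against other genes.

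Leaving out single libraries gave 6 to 47 calls for EGF in WT, 5 to 10 for EGF in AMPK KO, 10 to 26 for cordycepin in WT, 17 to 36 for cordycepin in AMPK KO, and 25 to 55, 13 to 22 and 4 to 32 between the lines in DMSO, with EGF and with cordycepin and EGF by unadjusted p and fold. By adjusted p alone it gave 0 to 1 for the difference of the EGF effect. No share of all genes is given beside these counts without single libraries, here or above. The class medians between the lines ran from -0.0148 to 0.0617 in DMSO and from -0.13 to 0.04 with EGF.

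With a replicate block inside each line, 40 were called in DMSO and 31 with EGF between the lines. Both counts compare the lines at the level of replicate 2 and not at the group means. No other count of calls moved by more than 1.5 times under this block. In a fit of only AMPK KO with cordycepin and EGF and AMPK KO with EGF, the block called 26 as labelled and 27 when crossed. The cause of the other changes was not tested. Without WT DMSO replicate 2 the calls for EGF in WT were 47, and without replicate 3 they were 7.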
